A study of Drosophila melanogaster with 30 samples.

Results

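The Y chromosome of Drosophila melanogaster carries few protein-coding genes, and these are expressed in the male germline. The genes described here are the 10 Y-linked genes kl-2, kl-3, kl-5, ORY, Ppr-Y, Pp1-Y1, Pp1-Y2, CCY, ARY and WDY. They were chosen by name: a probe set belonged to a gene when its only gene symbol in the platform annotation was one of these names. Of the 10 genes 8 were found, each with 1 probe set among 15309, and CCY and WDY were not found by symbol. RefSeq places all 8 on the Y chromosome. No nucleotide or protein sequence of them was used here.

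The values came from 30 Affymetrix Drosophila Gene 1.0 arrays of adult virgin males from a laboratory stock founded with flies from the field. They cover 10 diet histories with 3 arrays each. Larvae developed on rich (R) or poor (P) food, and a group is written as the foods of successive generations. The F0 groups were R and P. The F1 groups were R-R, R-P, P-R and P-P, with the parents' food first. In F2, where all parents were raised rich and the grandparents' food is written first, males of rich-raised grandparents formed R-R-R and R-R-P, and males of poor-raised grandparents formed P-R-R and P-R-P. All groups share the stock and the sex, the flies were frozen directly, and whole flies were used. The recipes of the foods are not described here. Whether the 3 arrays of a group stand for separate cultures is not stated in the labels, and p-values therefore measure only the spread between arrays, which may be technical.

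Males without a Y chromosome develop normally but are sterile, because the fertility factors on the Y are needed while sperm are built. Several of these genes have introns of very large size, are transcribed in primary spermatocytes over a long time and form lampbrush-like loops there. kl-2, kl-3 and kl-5 encode heavy chains of axonemal dynein, the motor that bends the sperm tail. Pp1-Y1 and Pp1-Y2 encode catalytic subunits of protein phosphatase 1, ORY and CCY encode proteins with coiled coils, WDY encodes a protein with WD40 repeats, and ARY encodes an aldehyde reductase.

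All 8 genes read low on these arrays. Their means over 30 arrays ran from 0.23 for Ppr-Y to 0.66 for ARY on the log2 scale, and all 8 lay below the median probe set, whose mean was 0.85. Of the 8, 6 lay below the first quartile of the probe set means, 0.41. Of the 240 single values of these genes, 233 (97.1%) were under the median of their own array, and 1 exceeded 1. Array medians ran from 0.82 to 0.94. Because probe sets differ in how brightly they respond, this places the readings near the dim end of the table and says nothing of which gene was more abundant. The arrays carry no detection call, and no array of flies without a Y chromosome was analysed here, so it was not tested whether any of the 8 stood above its own background.

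**Figure D1:**
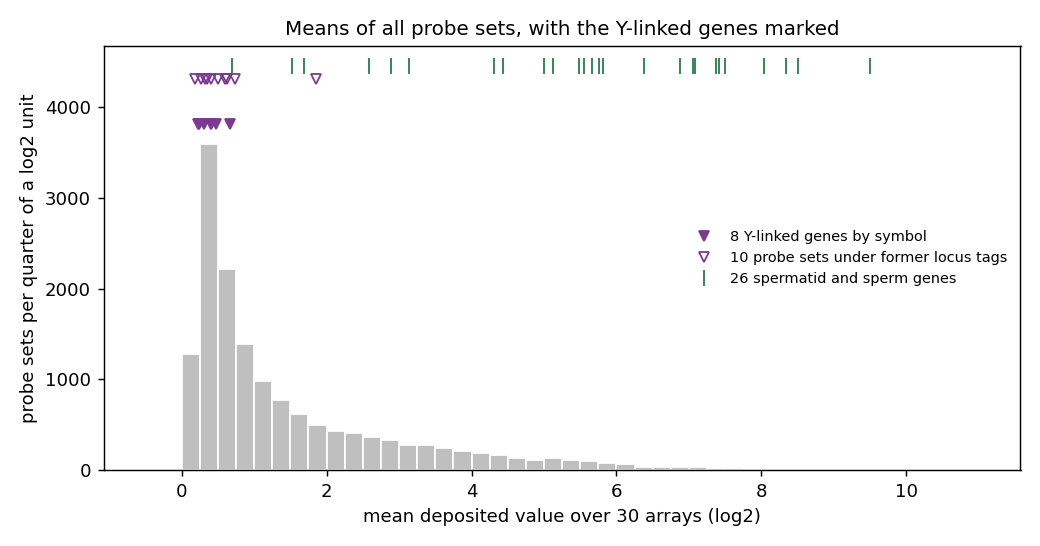
Histogram of the mean deposited value (log2, x axis) of all 15309 probe sets over 30 arrays, in equal bins. Filled triangles mark the 8 Y-linked genes (0.23 to 0.66), open triangles 10 probe sets under former locus tags of such genes, and green ticks 26 spermatid and sperm genes; the height of the marks has no meaning.

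Testis RNA was present on the same arrays. The 26 measured spermatid and sperm genes averaged 5.34 to 5.79 on 28 of the arrays. Means of the single genes ran from 0.70 for twe, the 1 gene below the median probe set, to 9.50 for Mst84Dc, with c-cup at 1.52 and fzo at 2.59. Among them betaTub85D, the testis-specific beta-tubulin of the sperm tail, averaged 5.76, ProtB, a protamine that packs sperm DNA, 6.38, and Mst77F, another sperm chromatin protein, 7.09. blanks and heph, which are needed in spermatocytes to process the transcripts of the giant Y-linked genes, averaged 3.52 and 2.42. Many probe sets listed for earlier stages in the testis were dim as well. Of 13 testis meiotic arrest genes, which switch on transcription in spermatocytes, 11 averaged below the median probe set. So did 4 of 6 genes listed for testis stem cells, not all of the germline, and spermatogonia (bam, bgcn, vas, tut, esg and zfh1), among them bam at 0.40. In whole flies, which tissue gave the signal of heph, esg or zfh1 was not tested. The 6 measured axonemal dynein heavy chain genes that are not on the Y, Dhc16F, Dhc36C, Dhc62B, Dhc93AB, Dhc98D and CG3339, averaged 0.18 to 0.81, so all 6 lay below the median probe set too. The 16 measured accessory gland genes averaged 5.45 to 5.88 on the 28 arrays.

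As a list, ovary and yolk genes were high on 2 arrays, the second replicates of R-P and of P-R-R. The 22 measured genes averaged 3.07 and 2.92 there and 0.28 to 0.46 on the other 28 arrays, and the yolk protein gene Yp2 read 8.10 and 9.05 against -0.06 to 0.81. Not every gene of the list was high on both. Cp15, Cp16 and Cp18 read 4.10, 4.55 and 3.80 on the R-P array. On the P-R-R array they read 0.95, 0.55 and 0.34, within their ranges on the other 28 arrays. grk read 0.76 and 0.43, within its 0.35 to 0.89 elsewhere. Spermatid and sperm genes averaged 5.10 and 5.12 on these 2 arrays, below the other 28. The mean of the 8 Y-linked genes was 0.219 and 0.220 there, against 0.215 to 0.632 elsewhere. Replicate 3 of P-R-P was the 1 array below both. The order held for the mean and not for each gene. kl-5 read 0.08 on replicate 2 of R-P, where its other 29 values were 0.10 or more, but Pp1-Y1 read 0.44 there, above its median of 0.23 over all arrays. In bulk samples, fewer cells of a type and less RNA per cell cannot be told apart. The part of these arrays in any difference below was not tested beyond the values given without them.

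**Figure D2:**
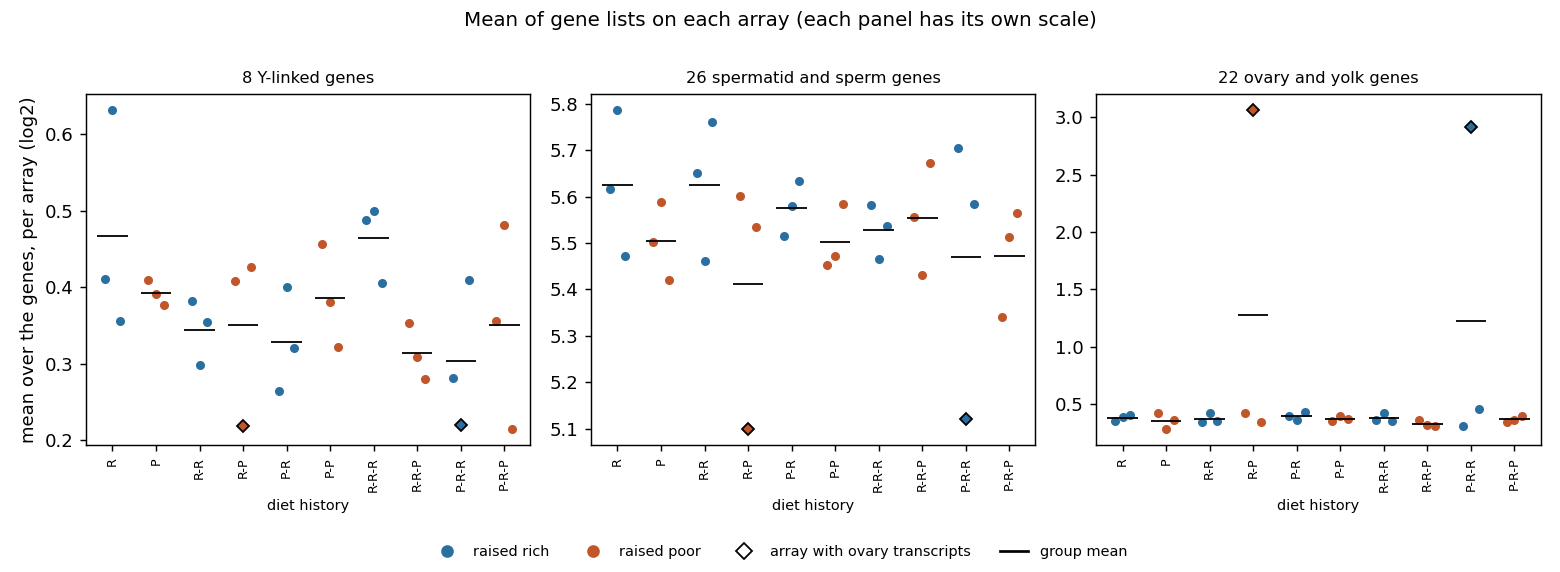
Mean of 8 Y-linked genes, 26 spermatid and sperm genes and 22 ovary and yolk genes (log2, y axes with separate scales) on each array, by diet history (x axis). Points are arrays, lines are group means, and the diamonds mark the 2 arrays with ovary transcripts, which lie at 0.219 and 0.220 in the left panel and at 3.07 and 2.92 in the right one.

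The genes were first compared across all 10 diet histories. Limma was fitted over all probe sets with a mean for each of the 10 groups, and a probe set was called at a Benjamini-Hochberg adjusted p under 0.05 over all 15309. The F test for any difference among the 10 groups called 0 of the 8 genes, and 0 had an unadjusted p under 0.05, where 0.882% of all probe sets were called. Adjusted p-values of the 8 genes in this limma test ran from 0.565 for kl-3 to 0.934 for kl-5 and Pp1-Y2. Group means of a gene spanned 0.22 for kl-2 to 0.50 for kl-3, with a median span of 0.30, beside 0.31 for the 7654 probe sets below the median probe set. The spread between arrays of a group, pooled over groups, had a median of 0.165 for the 8 genes and 0.170 for those dim probe sets.

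**Figure D3:**
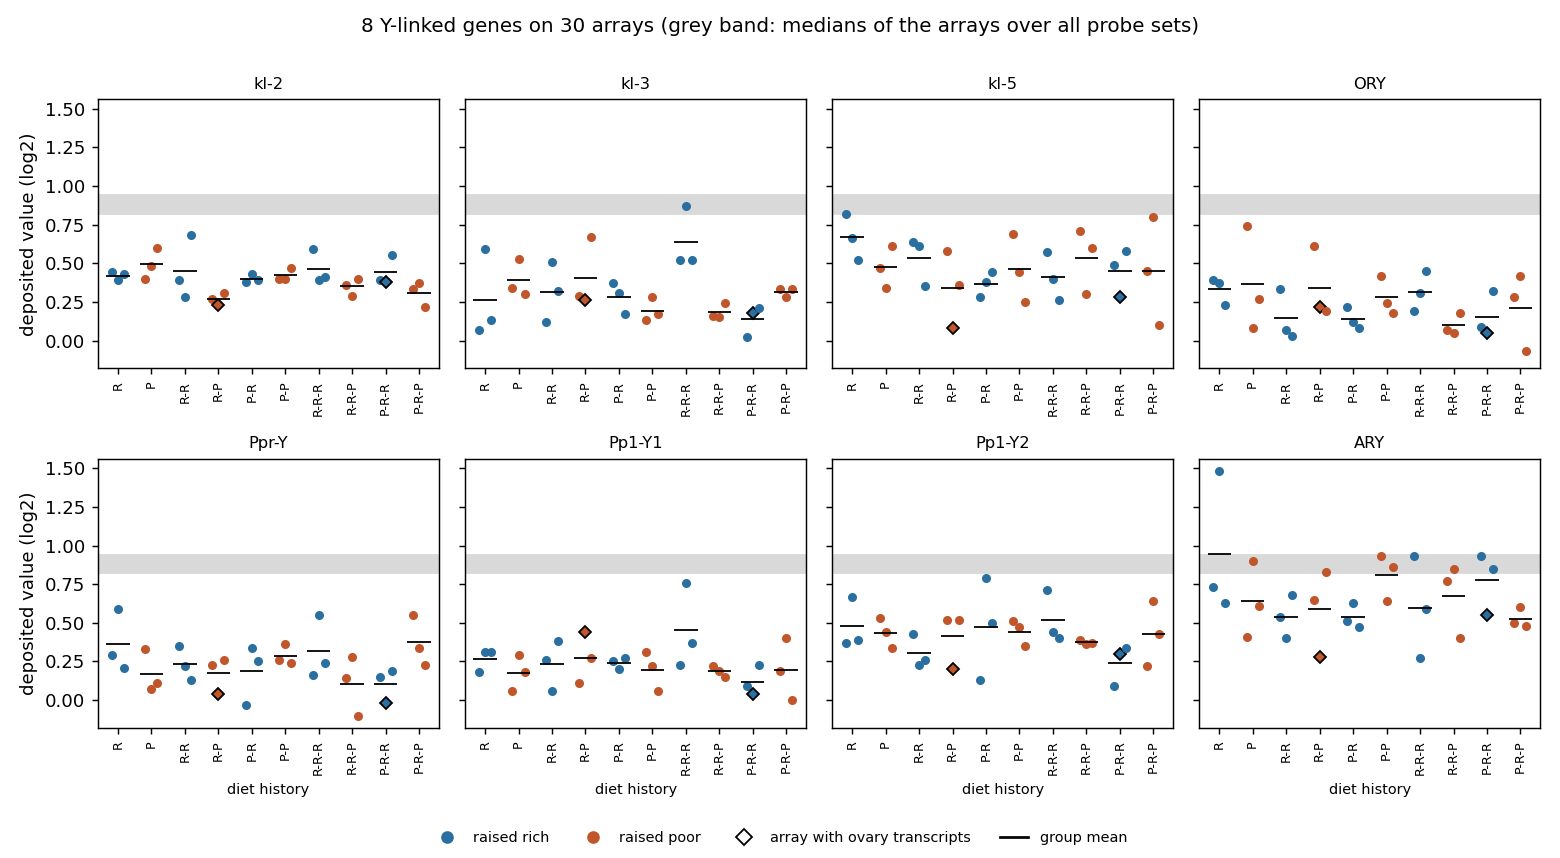
Deposited values (log2, y axis) of the 8 Y-linked genes on each of 30 arrays, by diet history (x axis); points are arrays, lines are group means and diamonds the 2 arrays with ovary transcripts. The grey band spans the array medians (0.82 to 0.94), which 7 of the 240 points reach within their own array.

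Among the dynein genes, kl-2 varied least. It averaged 0.40, with values from 0.22 to 0.68, and its group means ran from 0.27 ± 0.04 in R-P to 0.49 ± 0.10 in P (SD, n = 3). kl-5 averaged 0.47, with values from 0.08 to 0.82. Its mean was highest in R at 0.67 ± 0.15 and lowest in R-P at 0.34 ± 0.25 (SD, n = 3), a group that holds the array at 0.08. kl-3 averaged 0.31 and had the widest span. It read 0.52, 0.87 and 0.52 on the 3 arrays of R-R-R and 0.02, 0.18 and 0.21 on those of P-R-R, and these groups did not overlap. Ordered by their means, neighbouring groups differed by no more than the larger of their SDs in 9 of 9 steps for 7 genes. For kl-3 this held in 8 of 9 steps, the exception being the step from R-R-R to R-P, whose mean was 0.41. Sorting puts similar means side by side, so these counts say little about groups far apart in the order. The share over all probe sets was not counted.

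The phosphatase genes read 0.00 to 0.76 (Pp1-Y1) and 0.09 to 0.79 (Pp1-Y2). Both had their highest group mean in R-R-R, at 0.45 ± 0.28 and 0.52 ± 0.17, and their lowest in P-R-R, at 0.12 ± 0.10 and 0.24 ± 0.13 (SD, n = 3). In R-R-R, Pp1-Y1 read 0.23, 0.76 and 0.37, so that 1 array carried much of its mean. ORY read -0.07 to 0.74, with its highest mean in P (0.36 ± 0.34) and its lowest in R-R-P (0.10 ± 0.07). Ppr-Y read -0.10 to 0.59, with its highest mean in P-R-P (0.37 ± 0.16) and its lowest mean of 0.11 in P-R-R and in R-R-P. ARY held the 1 value above 1, 1.48 on replicate 2 of R, and its other values were 0.27 to 0.93. It averaged 0.95 ± 0.47 in R and 0.53 ± 0.06 in P-R-P (SD, n = 3), and without that replicate the other arrays of R read 0.73 and 0.63.

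The effect of the food a male itself developed on was taken as poor minus rich, averaged over 5 pairs of groups. Of the 8 genes 0 were called in limma and 0 had an unadjusted p under 0.05, where 1.84% of all probe sets were called. The differences ran from -0.07 ± 0.05 (standard error) for kl-2 to 0.04 ± 0.07 for ORY, with adjusted p-values from 0.713 to 0.976. All 8 intervals at 95% held 0, and together they reached from -0.21 to 0.18. The median difference was -0.03 for the 8 genes and -0.01 for all probe sets. A change in RNA that left a transcript near its array background would be understated on this scale, so the intervals limit the change in signal and not the change in transcript.

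**Figure D4:**
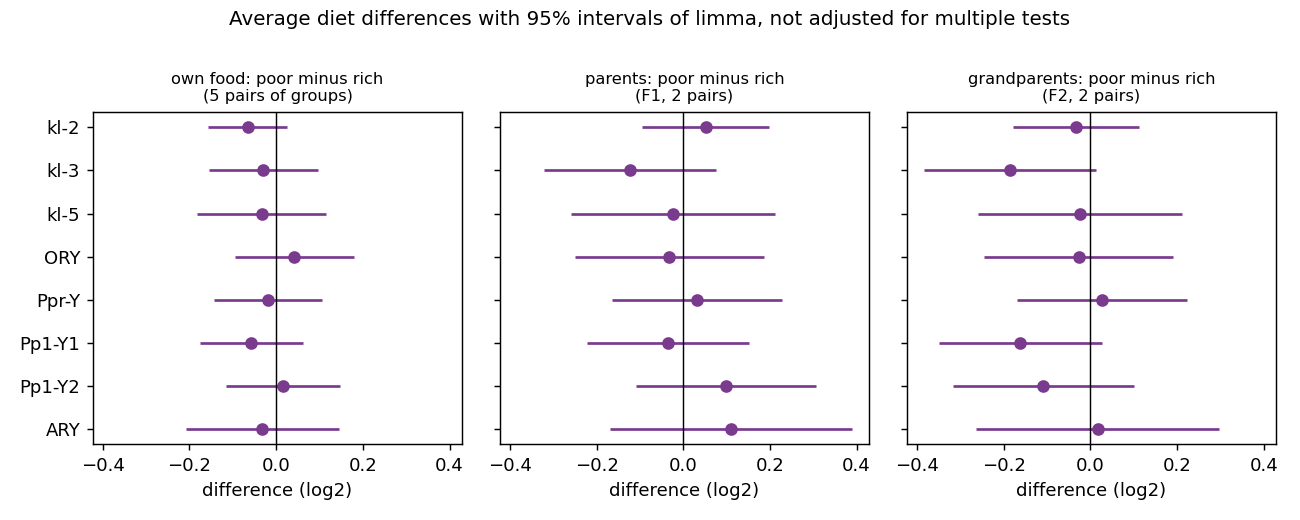
Differences (poor minus rich, log2, x axes) of the 8 Y-linked genes (y axis) for a male's own food, its parents' food and its grandparents' food, as means over the pairs of groups, with 95% intervals of limma. Every interval holds 0, and those for own food lie between -0.21 and 0.18.

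In the separate pairs limma also called 0 of the 8 genes. In F0 (P minus R) differences ran from -0.31 ± 0.19 for ARY to 0.13 ± 0.14 for kl-3 (0.03 without replicate 1 of R), where 0.183% of all probe sets were called. The value of ARY rested on replicate 2 of R, without which it was -0.04. In F1 males of rich-raised parents they ran from -0.19 to 0.20, with a background of 0.601%. In this pair kl-2 read 0.27, 0.23 and 0.31 in R-P and 0.39, 0.28 and 0.68 in R-R, a difference of -0.18 ± 0.10 (adjusted p = 0.646 in limma), and the groups overlapped. Without replicate 3 of R-R it was -0.065. In F1 males of poor-raised parents differences ran from -0.09 to 0.27, with a background of 0.0523%. In these 3 pairs 0 genes had an unadjusted p under 0.05.

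ARY was the gene at 0.27 ± 0.19 in that last pair. It read 0.93, 0.64 and 0.86 in P-P and 0.51, 0.63 and 0.47 in P-R, and these groups did not overlap. Its adjusted p was 0.998 in limma, and in F0 and in F2 males of poor-raised grandparents its differences were -0.31 (-0.04 without replicate 2 of R) and -0.25 ± 0.19. Some reductase genes off the Y fell with poor own food. Of 7 measured aldo-keto reductase genes off the Y, CG3397 (-0.98 ± 0.14, adjusted p = 1.08e-04) and CG12224 (-0.72 ± 0.16, adjusted p = 0.0145) fell on average over the 5 pairs in limma, and 0 rose. In this contrast 1.84% of all probe sets were called. In each separate own-food pair 0 of the 7 were called. The median difference of the 7 was below 0 in F0 and F1 but 0.02 and 0.18 in the F2 pairs. ARY differed by -0.03 ± 0.09 on average over the 5 pairs (adjusted p = 0.961 in limma), and the difference between ARY and these reductase genes was not tested. Of 8 protein phosphatase 1 genes off the Y and of 6 axonemal dynein genes off the Y, 0 were called in any of the 14 contrasts or 2 F tests of limma.

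In F2 males of rich-raised grandparents, 4 of the 8 genes had values in R-R-P that all lay below those in R-R-R, namely kl-3, Pp1-Y1, ORY and Pp1-Y2, where values of the 2 groups did not overlap, in either direction, for 13.3% of all probe sets. kl-3 read 0.16, 0.15 and 0.24 in R-R-P against 0.52, 0.87 and 0.52 in R-R-R. Pp1-Y1 read 0.22, 0.19 and 0.15 against 0.23, 0.76 and 0.37. Pp1-Y2 read 0.39, 0.36 and 0.37 against 0.71, 0.44 and 0.40. For Pp1-Y1 and Pp1-Y2 the groups were thus separated by 0.01. ORY read 0.07, 0.05 and 0.18 against 0.19, 0.31 and 0.45, again a gap of 0.01.

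In limma 0 of the 8 genes were called in this pair and 2 had an unadjusted p under 0.05, kl-3 at -0.45 ± 0.14 (adjusted p = 0.318) and Pp1-Y1 at -0.27 ± 0.13 (adjusted p = 0.639), with a background of 0.0588% of all probe sets called and 7.75% at an unadjusted p under 0.05. Without replicate 2 of R-R-R the difference of Pp1-Y1 was -0.11 and that of kl-3 -0.34. The median difference was -0.18 for the 8 genes and 0.02 for all probe sets. Spermatid and sperm genes overlapped between these groups, with a mean of 5.43 to 5.67 in R-R-P and of 5.47 to 5.58 in R-R-R. The 13 meiotic arrest genes averaged 0.69 to 0.74 in R-R-P and 0.53 to 0.57 in R-R-R. Of the 8 Y-linked genes, 6 differed by less than 0 and ARY (0.08 ± 0.19) and kl-5 (0.13 ± 0.16) by more. Array medians were 0.85 to 0.91 in R-R-P and 0.82 to 0.88 in R-R-R. The part of the medians in these differences was not tested beyond a refit with centred arrays, which also called 0 of the 8 genes.

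In F2 males of poor-raised grandparents 6 of the 8 differences were 0 or higher, with a median of 0.07 beside -0.01 for all probe sets. kl-3 (0.33, 0.28 and 0.33 in P-R-P against 0.02, 0.18 and 0.21 in P-R-R) and Ppr-Y (0.55, 0.34 and 0.23 against 0.15, -0.02 and 0.19) were higher in every poor-raised array, and kl-2 (0.33, 0.37 and 0.22 against 0.39, 0.38 and 0.55) was lower, where 10.5% of all probe sets did not overlap. Limma called 0 of the 8 genes, and 0 had an unadjusted p under 0.05, with a background of 0.0719%. The largest difference was that of Ppr-Y, 0.27 ± 0.14 (adjusted p = 0.590 in limma), or 0.18 without replicate 1 of P-R-P. Its value of -0.02 was on replicate 2 of P-R-R, an array with ovary transcripts. The own-food difference of kl-3 was -0.45 with rich-raised and 0.18 ± 0.14 with poor-raised grandparents. The test of the change between them gave 0.63 ± 0.19, with an adjusted p of 0.422 in limma. The interaction called 0 of the 8 genes in F2, of which kl-3 and Ppr-Y (0.48 ± 0.19, adjusted p = 0.577) had an unadjusted p under 0.05 (7.64% of all probe sets did), and 0 in F1, with 0% and 0.00653% of all probe sets called.

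The food of earlier generations was compared next. For the parents' food in F1 males, limma called 0 of the 8 genes on average (0.0196% of all probe sets were called), in males raised rich (0.0523%) and in males raised poor (0.0131%), and 0 had an unadjusted p under 0.05. Average differences ran from -0.12 ± 0.10 for kl-3 to 0.11 ± 0.14 for ARY. In males raised poor, kl-2 read 0.40, 0.40 and 0.47 in P-P and 0.27, 0.23 and 0.31 in R-P and did not overlap, which was so for 10.5% of all probe sets. The R-P values include an array with ovary transcripts, and without it the 2 other arrays read 0.27 and 0.31, still below P-P. The difference of kl-2 was 0.15 ± 0.10 (adjusted p = 0.830 in limma).

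For the grandparents' food in F2 males, limma called 0 of the 8 genes and 0% of all probe sets on average, in males raised rich and in males raised poor. In males raised rich, kl-3 and Pp1-Y2 were lower in every array of P-R-R than in R-R-R (9.61% of all probe sets did not overlap), and kl-3 (-0.50 ± 0.14, adjusted p = 0.25) and Pp1-Y1 (-0.33 ± 0.13, adjusted p = 0.503) had an unadjusted p under 0.05, as did 8.57% of all probe sets. Without replicate 2 of R-R-R the difference of Pp1-Y1 was -0.18. The adjusted p of kl-3 was the lowest of the 8 genes in any of the 16 tests, and leaving out both arrays with ovary transcripts gave -0.52, with an adjusted p of 0.331. This comparison shares the group R-R-R with that of own food above. In males raised poor, kl-3 was higher in every array of P-R-P than in R-R-P (0.13 ± 0.14, adjusted p = 0.987, where 11.6% of all probe sets did not overlap). Average differences over both backgrounds ran from -0.19 ± 0.10 for kl-3 to 0.03 ± 0.10 for Ppr-Y.

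Over the 9 comparisons of a pair of groups, a gene's values did not overlap in 12 of 72 cases (16.7%), against 11.1% over all probe sets. In F0, in F1 males of rich-raised parents and for the parents' food in males raised rich, 0 of the 8 genes were separated (11.1%, 12.5% and 10.8% of all probe sets), and in F1 males of poor-raised parents only ARY was (10.4%). Several of the comparisons share groups. Among the 3 generations with only rich food (R, R-R and R-R-R), kl-3 averaged 0.26, 0.32 and 0.64 and had an unadjusted p under 0.05, as did 7.48% of all probe sets, with an adjusted p of 0.588 in limma. The F test called 0 of the 8 genes and 0.00653% of all probe sets.

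The platform annotation also lists older gene models that RefSeq has since joined into these genes. By their former locus tags, 10 further probe sets belong to kl-3 (CG40936, CG40992), kl-5 (CG41497), CCY (CG40968, CG40948, CG42620) and WDY (CG40551, CG41020, CG40583 and CG40245, the last a tag that RefSeq also ties to the pseudogene CR45931). They were added after the values had been seen. Of the 10, 9 averaged below the median probe set, at 0.18 to 0.74, and the 4 of WDY averaged 0.27 to 0.59. Limma called 0 of the 10 in the 14 contrasts and 2 F tests, with a lowest adjusted p of 0.233. For WDY, CG41020 (0.34 ± 0.14, standard error), CG40245 (0.35 ± 0.15) and CG40583 (0.13 ± 0.10) had every P-R-P value above P-R-R. CG40551 overlapped there (0.23 ± 0.12), and 10.5% of all probe sets did not. In F1, every R-P value of CG40551 lay above R-R (0.27 ± 0.12) and above P-P, which differed from R-P by -0.28 ± 0.12. Of all probe sets 12.5% and 10.5% did not overlap in those pairs.

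CG42620, now part of CCY, was the exception in level. It averaged 1.85, with values from 1.18 to 2.56, and lay above its array's median on all 30 arrays. Its group mean was highest in R-R at 2.26 ± 0.26 and lowest in R-R-R at 1.49 ± 0.25 (SD, n = 3). The arrays of R-R read 2.08, 2.56 and 2.13, those of R 1.65, 1.93 and 1.91, and those of R-R-R 1.62, 1.20 and 1.65. Among these 3 groups with only rich food the adjusted p was 0.356, and among all 10 groups it was 0.233 (limma F tests). In the order of its 10 group means, 1 of 9 steps between neighbours exceeded the larger SD, a count with the same limit as that of kl-3.

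For own food, CG42620 differed by 0.58 ± 0.19 in F2 males of rich-raised grandparents (adjusted p = 0.365 in limma). It read 2.16, 2.02 and 2.02 in R-R-P, all above R-R-R, a pair in which 13.3% of all probe sets did not overlap. The direction was opposite to that of kl-3. The other probe sets of CCY did not follow it. CG40948 averaged 0.74 in R-R-P and 1.02 in R-R-R, and CG40968 averaged 0.41 and 0.40. For the grandparents' food in males raised rich, CG40948 was lower in every array of P-R-R (0.60, 0.27 and 0.63) than in R-R-R. In that pair 9.61% of all probe sets did not overlap. CG40948 differed by -0.52 there, or -0.405 without replicate 2 of P-R-R, and was not called in limma. Its direction was that of kl-3, while CG42620 differed by 0.27. With poor-raised grandparents the own-food difference of CG42620 was -0.25 ± 0.19 (adjusted p = 0.764 in limma), or -0.09 without replicate 2 of P-R-P. For the grandparents' food in males raised poor, CG42620 was lower in every array of P-R-P (1.47, 1.18 and 1.86) than in R-R-P. There 11.6% of all probe sets did not overlap. That difference was -0.56, or -0.40 without replicate 2 of P-R-P, and was not called in limma. In F1 males of rich-raised parents CG42620 was lower in every array of R-P (1.93, 1.76 and 2.0) than in R-R. In this pair 12.5% of all probe sets did not overlap. The difference of CG42620 was -0.36 ± 0.19 (adjusted p = 0.605 in limma), or -0.21 without replicate 2 of R-R. On replicates 1 and 3 of R-R, 67 cuticle protein probe sets (symbols starting with Cpr) averaged 0.63 each, against 0.76 to 1.0 on the other 28 arrays, and their part in this value was not tested.

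The 3 probe sets of kl-3 followed each other in part. In R-R-R and R-R-P, CG40992 read 0.40, 0.67 and 0.53 against 0.28, 0.10 and 0.28, without overlap and in the direction of kl-3 (-0.31 ± 0.15, adjusted p = 0.615). In this pair 13.3% of all probe sets did not overlap. CG40936 read 0.27, 0.48 and 0.14 against 0.18, 0.10 and 0.10 and overlapped (-0.17 ± 0.16, adjusted p = 0.844, and -0.08 without replicate 2 of R-R-R). For the grandparents' food in males raised rich, where kl-3 differed by -0.50, CG40992 and CG40936 differed by -0.12 ± 0.15 and -0.05 ± 0.16. The probe sets share the arrays, so they are no replicates of one another.

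**Figure D5:**
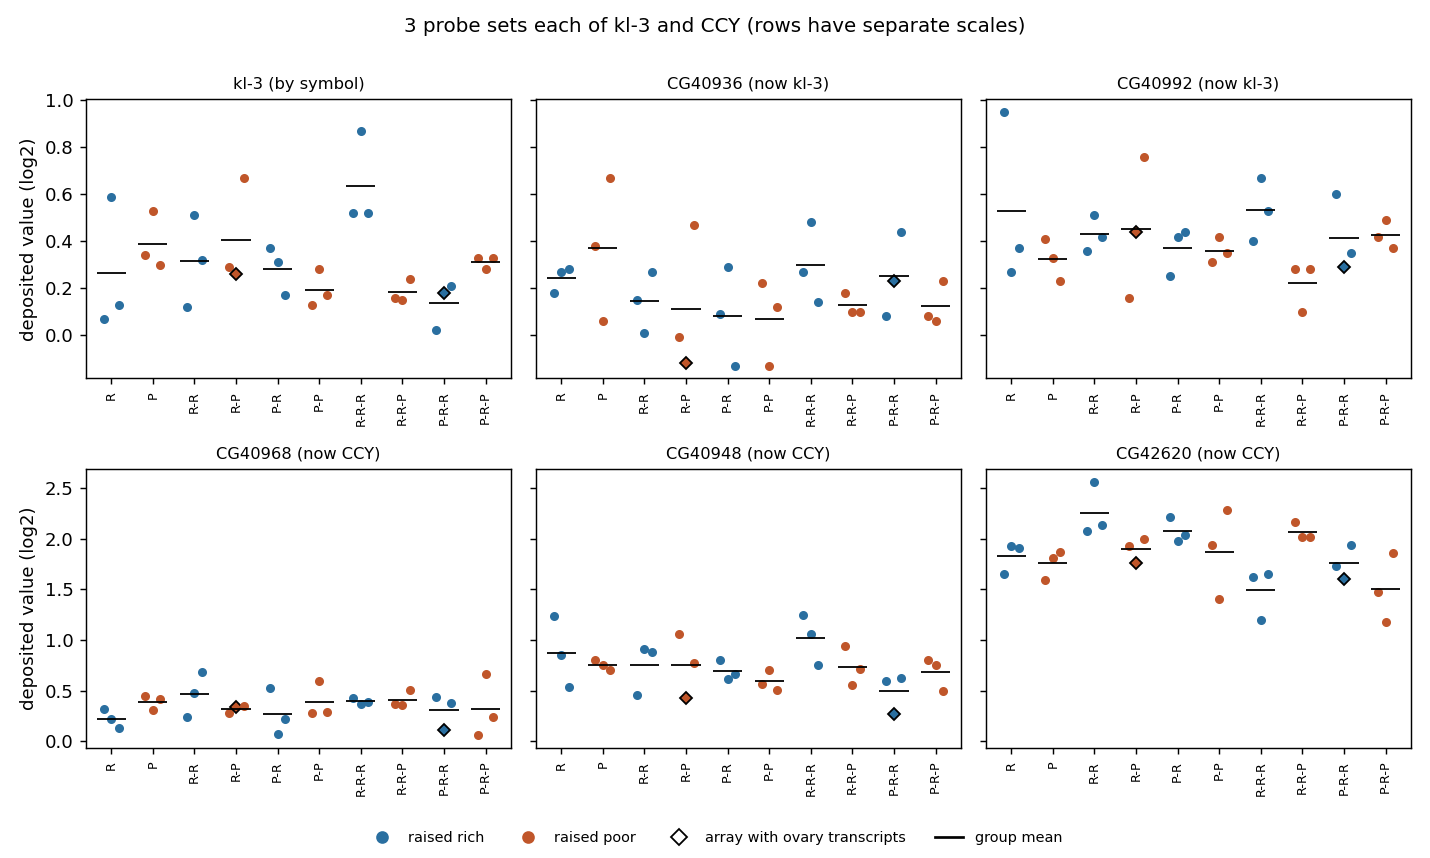
Deposited values (log2, y axis, 1 scale per row) of 3 probe sets of kl-3 and 3 of CCY on each of 30 arrays, by diet history (x axis); points are arrays, lines group means, diamonds the 2 arrays with ovary transcripts. CG42620 is the 1 probe set of the 6 with every value above 1. Its group mean is lowest in R-R-R, where those of kl-3, CG40992 and CG40948 are highest.

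Of 36 other Y-linked probe sets with 1 symbol, 3 averaged above the median probe set. FDY, a further protein-coding gene of the Y, averaged 0.38, with values from -0.06 to 1.10, and 3 probe sets of PRY under its former tags CG40930, CG41367 and CG42619 averaged 0.16, 0.30 and 0.25. The Su(Ste) repeats of the Y are the source of small RNAs that silence the X-linked Stellate genes in testes, and their 26 probe sets averaged 0.051 to 1.153. These repeats are near-identical, so a probe set may read several copies. CG43176, a model that RefSeq now lists as the pseudogene CR43176 on the Y, averaged 4.37 (3.49 to 5.19) and was singled out here after its values were seen.

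The 8 genes varied little in common. Over the 28 pairs of genes, Pearson's r across the 30 arrays had a median of 0.21 and ran from -0.19 to 0.48. The highest was that of Pp1-Y1 and kl-3, and the median was 0.15 without the 2 arrays with ovary transcripts. These are descriptions over arrays that share normalization and, by threes, a diet history. Set against the mean of the spermatid and sperm genes on each array, r ran from -0.04 for Pp1-Y1 to 0.47 for ARY on 30 arrays, and from -0.18 for Ppr-Y to 0.41 for ARY on 28.

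For each gene the 2 most alike of the other probe sets with 1 symbol were taken by Pearson's r over the 28 arrays without high ovary transcripts. They were CG17272 (0.74) and CG18063 (0.72) for ARY, mir-287 (0.77) and lncRNA:CR43761 (0.74) for Pp1-Y1, and CG34263 (0.71) and CG11085 (0.66) for kl-3. For ORY they were sky (0.74) and lncRNA:CR43256 (0.68), for kl-2 CG32457 (0.64) and CG16753 (0.63), and for kl-5 lncRNA:CR43456 (0.64) and CG42763 (0.61). For Ppr-Y they were mir-1005 (0.67) and CG32115 (0.65), and for Pp1-Y2 CG17707 (0.67) and mir-313 (0.63). Each was picked as an extreme over all such probe sets, and for kl-2 the r with CG16753 was 0.36 on all 30 arrays. None of the 16 is a gene of the testis lists named above. Those lists hold few of the 13423 probe sets searched, so a match was unlikely and its absence says little. Among the probe sets under former tags, CG40968 of CCY was most alike to Mst87F (0.66), a spermatid and sperm gene.

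Of those testis lists, tomb, a meiotic arrest gene, was the 1 gene of 13 called, by 0.80 ± 0.12 in F0 (adjusted p = 0.00164 in limma) and among the 10 groups (adjusted p = 0.00148). Those tests called 0.183% and 0.882% of all probe sets. Of 26 spermatid and sperm genes, the 6 genes listed for testis stem cells and spermatogonia, and blanks and heph, 0 were called in any of the 16 tests. Of 16 accessory gland genes 1, Dup99B, which encodes a peptide of the ejaculatory duct, rose with poor own food on average (0.51 ± 0.06, adjusted p = 3.78e-06) and in F0 (0.64 ± 0.13, adjusted p = 0.0380). These 2 contrasts called 1.84% and 0.183% of all probe sets. Of 22 ovary and yolk genes 0 were called.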

How the data were processed

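The authors deposited a table of GCRMA values, per the submitters' processing notes. This method adjusts the background of each probe by its sequence, normalizes the arrays to each other and combines probes into probe sets. The deposited values were taken as log2, the usual scale of this method. The base is not stated in the notes, and with natural logarithms every difference would be 1.44 times larger. GCRMA compresses differences among dim probe sets. Of 15309 probe sets 13441 had 1 symbol, 555 several and 1313 none. Limma 3.58.1 in R 4.3.3 (lmFit, eBayes, no covariate, no filter) gave 14 contrasts and 2 F tests, adjusted by Benjamini-Hochberg over all probe sets, and was tested on simulated data. Precision is limited by having 3 arrays in each group. Named were all 8 genes, probe sets under former tags, their close relatives, up to 4 called genes of a marker list and the 2 most alike probe sets of each gene. Other genes named give context and were picked after values were known. Former locus tags came from the RefSeq gene table of the Release 6 assembly, used for names and chromosomes only. The genes and lists were chosen with earlier results of these data known. The alternatives tried were other normalizations, filters, left-out arrays, variance models and covariates.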

Additional observations from a re-analysis of the deposited data

How the results depend on the processing

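In limma, 0 of the 8 genes were called in each of the 14 contrasts and 2 F tests under quantile normalization, centring on the median, trend and robust estimation, array weights, the spermatid and sperm mean as a covariate, and without the 2 arrays with ovary transcripts, the 2 arrays of R-R low in cuticle transcripts, each single array or each replicate number. Counting the 10 probe sets under former locus tags as well, an alternative chosen after seeing the data, also gave 0. The filter to probe sets above the median probe set removed all 8 genes, so it gives no value for them. With the replicate number as a block the count was 0 too, and kl-3 differed by -0.50 for the grandparents' food in males raised rich (adjusted p = 0.24). Whether the numbers pair the arrays is not stated in the labels, and the values cannot settle it. Deviations of same-numbered arrays of different groups correlated at a mean of 0.008, with a highest r of 0.632. For differently numbered arrays the mean was -0.004 and the highest 0.376. Both arrays with ovary transcripts carry the number 2. The own-food differences on average lay close to 0, and signs were not stable. ARY moved from -0.032 to 0.033 with the spermatid and sperm mean as covariate. Leaving out arrays moved ARY between -0.065 and 0.021, kl-3 between -0.081 and 0.051, kl-5 between -0.068 and 0.002, ORY between -0.027 and 0.099, Pp1-Y1 between -0.102 and 0.005, Pp1-Y2 between -0.020 and 0.056, Ppr-Y between -0.087 and 0.031 and CG42620 between -0.130 and 0.016, while kl-2 stayed between -0.089 and -0.043. For kl-3, leaving out arrays gave -0.595 to -0.383 for the grandparents' food in males raised rich and -0.540 to -0.320 for own food in F2 males of rich-raised grandparents. Its lowest adjusted p under any alternative was 0.209 and 0.173. Dim signal may limit all of these comparisons. The 8 genes lay below the median probe set, and a difference that did not raise a gene above its background may have gone undetected. Whether that was so was not tested.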
